A study of Homo sapiens with 8 samples.

Results

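Transcripts of 8 human genes that set the phosphorylation of eIF2alpha, the alpha subunit of translation initiation factor eIF2, were measured in 293T cells treated with the ERAD inhibitor EerI, the related compound CBU-028 or 5-NA. The genes were chosen by symbol for their role: the kinases EIF2AK1, EIF2AK2, EIF2AK3 and EIF2AK4, the kinase inhibitor IMPACT, the substrate EIF2S1 itself, and PPP1R15A and PPP1R15B, the subunits that direct a phosphatase to it. The choice was made with earlier results of these data known, so the counts below do not come from a blind selection. These genes are 8 of the 19775 that the array annotation names by a probe set with a single symbol. All 17 of their probe sets, of 54675 on the array, were examined, and 0 of the 17 are annotated to more than 1 gene.

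eIF2 carries the initiator tRNA to the ribosome. When its alpha subunit is phosphorylated, the exchange factor eIF2B is blocked, most translation falls, and a few mRNAs such as that of the transcription factor ATF4 are translated better. The kinases answer to different stresses: EIF2AK1 (HRI) to a lack of heme and to mitochondrial stress, EIF2AK2 (PKR) to double-stranded RNA, EIF2AK3 (PERK) to unfolded proteins in the ER, and EIF2AK4 (GCN2) to uncharged tRNA and stalled ribosomes. PPP1R15A (GADD34), which is inducible, and PPP1R15B (CReP), which is constitutive, bind protein phosphatase PP1 and bring it to eIF2alpha, closing the loop. Arrays measure mRNA only, and neither kinase activity nor the phosphorylation of eIF2alpha was measured here.

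293T is an established human cell line, derived from embryonic kidney and expressing large T antigen of SV40. The cells, from ATCC, were left as control or given 10 µM of one compound for 10 h, with 2 arrays in each of the 4 groups, 8 in all; whether the control received the solvent is not given in the sources used here. EerI joins a nitrofuran-containing group to an aromatic domain, 5-NA (5-nitrofuryl-acrolein) corresponds to the nitrofuran-containing group alone, and CBU-028 was tested as an ERAD inhibitor related to EerI. Dose and time were the same for the 3 compounds, so the comparisons ask how a compound moved each gene against control and whether compounds differed from each other. The titles of the 5-NA samples carry the number 214, which the study's compound list gives to CBU-029, whereas their other labels and the paper name 5-NA. The methods name a smaller array of the same Affymetrix family, but the probe sets are those of HG-U133 Plus 2.0. Nothing beyond the words duplicate and biological replicate tells how the cultures were kept apart, so p-values measure the spread between these samples, and the 2 arrays a group limit the precision.

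The 8 arrays had medians between 6.89 and 6.93 (log2), and duplicates correlated at 0.995 to 0.998 over all probe sets. The spread within duplicates was widest in CBU-028 (residual SD 0.163 log2) and narrowest in control (0.0921). The difference between the 3′ and 5′ probe sets of actin, a sign of RNA integrity, was 0.0743 to 0.196 on 7 arrays and 0.363 on the second 5-NA array. Markers that 293T cells are known to express (KRT8, KRT18, VIM, NEFL, NEFM) averaged 9.44 to 13.7, and 7 markers of the B cell lymphoma line also used in the study averaged 4.63 to 7.73. RNA came from whole cultures, so fewer cells expressing a gene and less of its RNA per cell cannot be told apart.

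The promoters of the phosphatase subunits are shown because one of these genes moved with every compound and its relative did not pass the test with any. Each is the RefSeq sequence (GRCh38.p14) of the 250 bases before the start of the gene, 5′ to 3′ on the strand of the gene, with capitals for the motif found. PPP1R15A lies on the plus strand at chr19:48872171-48872420 and PPP1R15B on the minus strand at chr1:204411818-204412067.
PPP1R15A: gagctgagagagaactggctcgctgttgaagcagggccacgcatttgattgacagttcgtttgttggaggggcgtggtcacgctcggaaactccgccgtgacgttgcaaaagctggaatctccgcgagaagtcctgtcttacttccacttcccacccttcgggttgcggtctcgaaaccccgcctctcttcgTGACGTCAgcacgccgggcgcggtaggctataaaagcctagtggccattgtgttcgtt
PPP1R15B: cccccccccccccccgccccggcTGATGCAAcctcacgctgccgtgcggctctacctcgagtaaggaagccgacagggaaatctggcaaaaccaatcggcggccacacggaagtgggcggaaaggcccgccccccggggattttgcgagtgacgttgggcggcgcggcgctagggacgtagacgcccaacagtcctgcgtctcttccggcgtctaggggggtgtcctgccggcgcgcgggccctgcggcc
Both strands of the promoters of 7 members (EIF2AK1 is not among them) were searched for TGATGNAA and TTGCATCA, forms of the C/EBP-ATF response element, for TGACGTGG, and for the ER stress element. PPP1R15B held TGATGCAA at 227 to 220 bases before its start, which is a match to TGATGNAA and the reverse complement of TTGCATCA, 2 overlapping motifs. Of 35116 promoters, 3.14% held TGATGNAA, 0.772% TTGCATCA, 0.612% TGACGTGG and 0.074% the ER stress element. PPP1R15A held none of these, but TGACGTCA, the cyclic AMP response element, added to the search after the sequence was seen, stood 58 to 51 bases before its start and in 1.65% of promoters. Binding of ATF factors was not measured, and the lack of the searched forms does not tell that PPP1R15A has no ATF site. The promoters of the other 5 held none of the motifs. For EIF2AK3 the stretch searched, chr2:88627465-88627714 on the minus strand, lies inside the annotated gene (88556741 to 88628145). The bases before the annotated start of EIF2AK3 were therefore not searched.

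PPP1R15A was higher with all 3 compounds and had the largest rise of the 8 genes with each. EIF2AK3 rose with CBU-028 and with 5-NA, while EIF2AK4 and IMPACT fell with 5-NA. By the methods' ANOVA after Benjamini-Hochberg adjustment, PPP1R15A with EerI, EIF2AK3 with CBU-028 and IMPACT with 5-NA did not pass on their representative probe sets. EIF2AK1, EIF2AK2, EIF2S1 and PPP1R15B did not pass the test with any compound by the probe set that represents them. Where a gene had several probe sets, the brightest on average stands for it, values are RMA values on the log2 scale, and a difference passed at an adjusted p below 0.05 in limma with Benjamini-Hochberg adjustment over all probe sets.

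With EerI, 1 of 8 members was higher and 0 lower, against 0.506% of all genes higher and 0.263% lower. With CBU-028, 2 of 8 were higher and 0 lower, against 5.49% and 7.1% of all genes. At an unadjusted p below 0.05 in limma, 0 were lower with EerI and 2 with CBU-028 (EIF2AK2 and EIF2AK4), and 0 in either case by the methods' ANOVA after Benjamini-Hochberg adjustment. With 5-NA, 2 of 8 were higher and 2 lower, against 7.87% and 10.9%. Among the 17 probe sets, 2 passed with EerI, 4 with CBU-028 and 8 with 5-NA, where 0.527%, 9.67% and 15.2% of all probe sets passed. The median size of the difference over the 8 genes was 0.09 with EerI, 0.21 with CBU-028 and 0.45 with 5-NA on the log2 scale, beside 0.08, 0.12 and 0.13 over all genes. The 3 comparisons share the control arrays and are set side by side here without a test of their likeness.

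**Figure D1:**
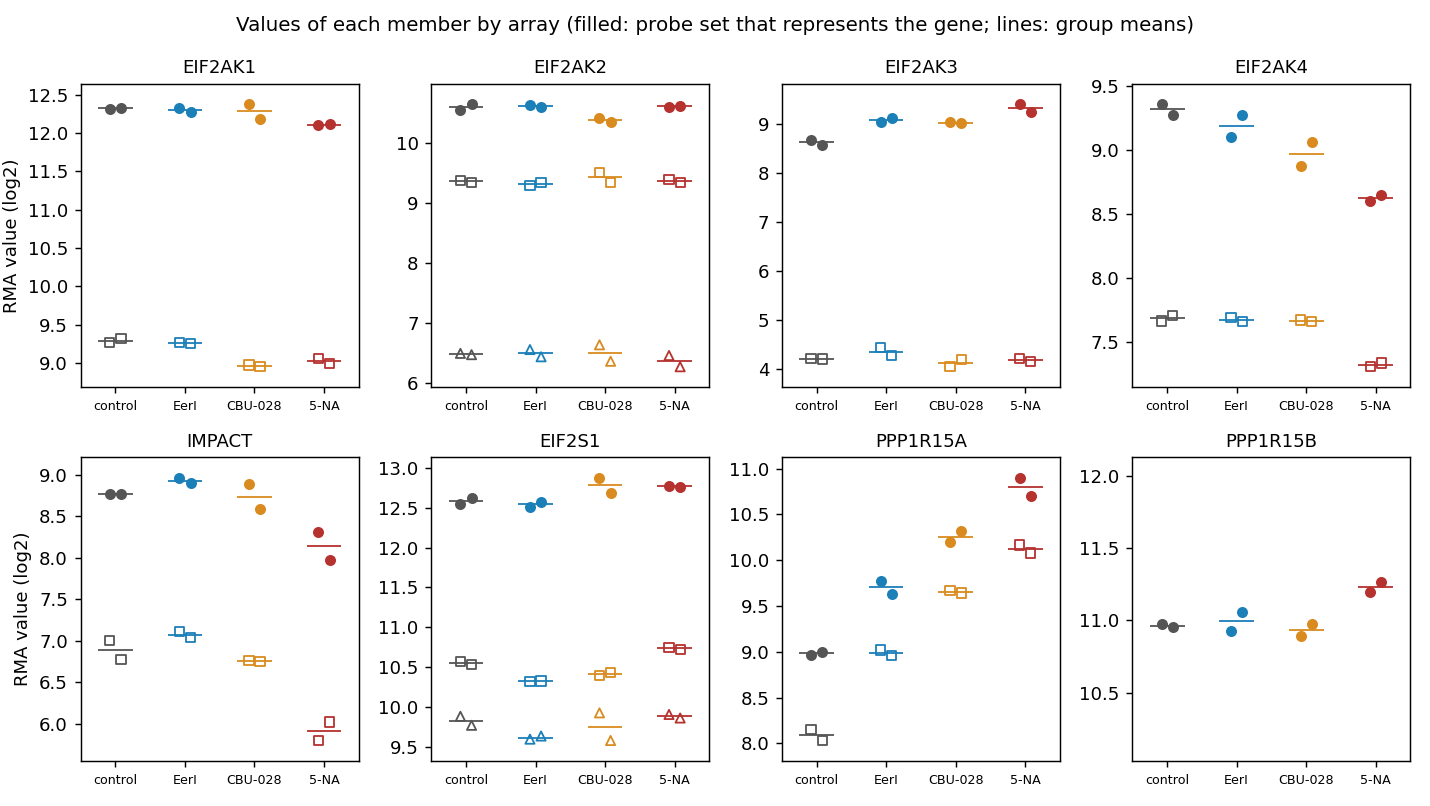
RMA value (log2) of every probe set of the 8 genes on each of the 8 arrays, by group. Filled points are the probe set that represents the gene, open squares and triangles its other probe sets, and lines the mean of 2 arrays. PPP1R15A steps up from control (8.97 and 9.0) over EerI and CBU-028 to 5-NA (10.90 and 10.70), and EIF2AK4 and IMPACT are lowest in 5-NA.

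The inducible phosphatase subunit was examined first. By its representative probe set, 37028_at, PPP1R15A read 8.97 and 9.0 in control, 9.77 and 9.63 with EerI, 10.19 and 10.32 with CBU-028, and 10.90 and 10.70 with 5-NA. The second probe set, 202014_at, read 8.15 and 8.03 in control, 9.02 and 8.96 with EerI, 9.67 and 9.64 with CBU-028, and 10.17 and 10.08 with 5-NA. On both probe sets the 4 groups did not overlap and stood in the same order, from control over EerI and CBU-028 to 5-NA. The rise by 37028_at was 0.72 ± 0.10 (log2, SE) with EerI, 1.64-fold, with a limma adjusted p of 0.0157. With EerI the rise stayed below 2-fold on both probe sets, and by the methods' ANOVA the adjusted p of 37028_at with EerI was 0.163. The rise was 1.27 ± 0.10 with CBU-028, 2.41-fold (adjusted p 0.000209 in limma), and 1.82 ± 0.10 with 5-NA, 3.53-fold (adjusted p 3.58e-05 in limma). Probe set 202014_at gave rises of 0.90, 1.56 and 2.03. Among the 19775 genes ordered by rise, PPP1R15A stood at place 57 with EerI, 35 with CBU-028 and 14 with 5-NA. Both probe sets kept their calls with CBU-028 and with 5-NA when any 1 array was left out. With EerI, 202014_at also kept its call (highest adjusted p 0.0453 in limma), whereas 37028_at lost it without either control or either EerI array (highest adjusted p 0.232).

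The steps between the compounds were tested directly. PPP1R15A was higher with CBU-028 than with EerI by 0.55 ± 0.10 (95% interval 0.33 to 0.77, limma adjusted p 0.0234), higher with 5-NA than with EerI by 1.10 (0.88 to 1.32, adjusted p 0.000386), and higher with 5-NA than with CBU-028 by 0.55 (0.33 to 0.77, adjusted p 0.00895). The other probe set gave 0.66, 1.13 and 0.47, all past the threshold. Between 5-NA and EerI, which differ by the aromatic domain, the step held without any 1 array. The smaller steps did not. That between CBU-028 and EerI was lost on both probe sets without either EerI array, and on 37028_at also without either control array (highest adjusted p 0.18). That between 5-NA and CBU-028 was lost on both without the first 5-NA array. On 37028_at neither smaller step passed by the adjusted ANOVA or in fits of the compared groups alone.

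The constitutive subunit moved less, with its highest values in 5-NA. PPP1R15B, with the single probe set 224692_at, read 10.97 and 10.95 in control, 10.93 and 11.06 with EerI, 10.89 and 10.97 with CBU-028, and 11.20 and 11.26 with 5-NA. Both 5-NA arrays were above the other 6, which overlapped. The difference with 5-NA was 0.27 (0.08 to 0.46), short of the threshold in limma (adjusted p 0.0624). It passed in limma where the variance prior followed the mean (adjusted p 0.0144). It also passed where probe sets with a mean below 7 (adjusted p 0.0225) or below 5 (adjusted p 0.0487) were left out. The differences with EerI (0.03, -0.16 to 0.22) and with CBU-028 (-0.03, -0.22 to 0.16) were near 0. Their intervals leave out a change as large as that of PPP1R15A. Directly, PPP1R15B was higher with 5-NA than with CBU-028 by 0.30 (0.11 to 0.49, limma adjusted p 0.0541). Against EerI, 5-NA was higher by 0.24 (0.05 to 0.43, adjusted p 0.0985 in limma). Neither passed, but both did where the variance prior followed the mean (adjusted p 0.011 and 0.0286 in limma).

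**Figure D2:**
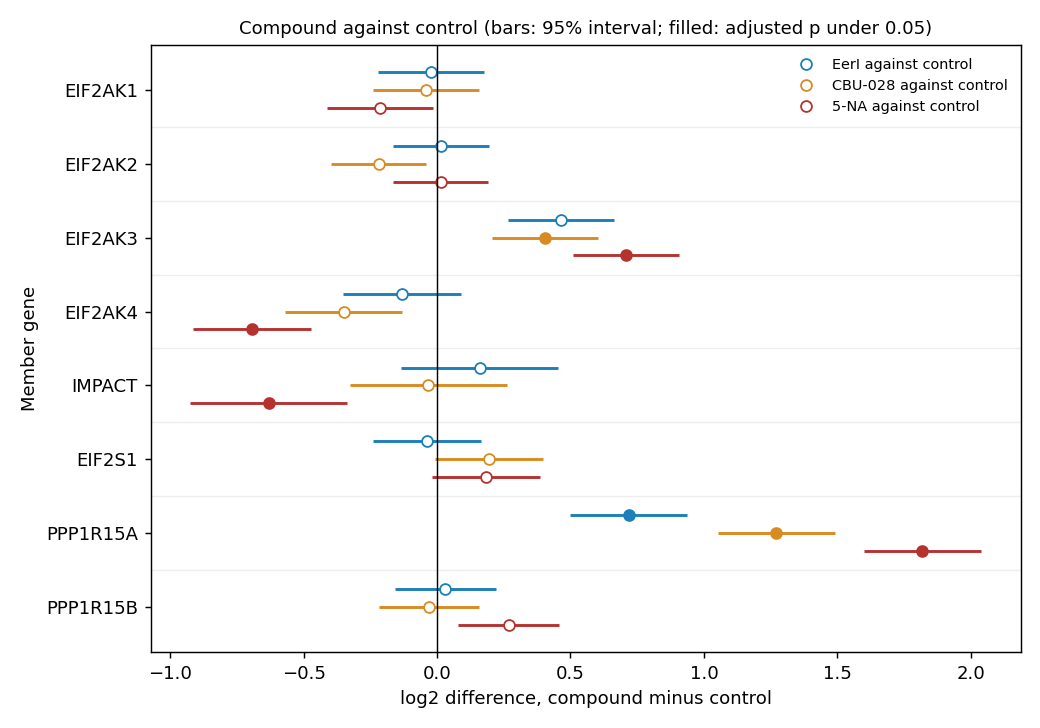
Difference of each compound from control (log2, horizontal axis) for the representative probe set of each gene, with 95% intervals from 2 arrays a group and 1 shared fit. Filled points passed the test. PPP1R15A is the only one of the 8 filled for all 3 compounds (0.72, 1.27 and 1.82), and EIF2AK4 and IMPACT are filled to the left of 0 for 5-NA alone.

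Of the kinases, EIF2AK3, the ER stress sensor PERK, was the one that rose. Its probe set 218696_at read 8.67 and 8.56 in control, 9.04 and 9.12 with EerI, 9.03 and 9.01 with CBU-028, and 9.40 and 9.25 with 5-NA. All treated arrays were above both controls, the 5-NA arrays were the highest, and those of EerI lay just above those of CBU-028. The rise was 0.71 ± 0.09 with 5-NA (1.63-fold, limma adjusted p 0.00126) and 0.40 ± 0.09 with CBU-028 (1.32-fold, adjusted p 0.0217). With EerI the difference was of similar size, 0.46 (0.26 to 0.66), but did not pass (adjusted p 0.0699 in limma). Fewer probe sets passed over the whole array with EerI, and with p-values adjusted over all 6 comparisons together the same difference passed (adjusted p 0.0133). The call with 5-NA was kept without any 1 array (highest adjusted p 0.0193), and the call with CBU-028 was lost without either control array or the first CBU-028 array (highest adjusted p 0.171). The other probe set, 241463_at, was dim at 4.04 to 4.43 and passed in none of the comparisons. By the adjusted ANOVA and in the fit of the 2 groups alone, the CBU-028 difference by 218696_at did not pass. The mean of the gene's probe sets with CBU-028 (0.16) did not pass either.

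No pair of compounds differed past the threshold for EIF2AK3. The 5-NA value exceeded that of CBU-028 by 0.30 (0.11 to 0.50, limma adjusted p 0.0604) and that of EerI by 0.24 (0.05 to 0.44, adjusted p 0.106), and CBU-028 stood 0.06 below EerI (-0.26 to 0.14).

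EIF2AK4, the amino acid sensor GCN2, went the other way. Its probe set 225164_s_at read 9.36 and 9.28 in control, 9.10 and 9.28 with EerI, 8.88 and 9.06 with CBU-028, and 8.61 and 8.65 with 5-NA. The 5-NA arrays were the lowest, CBU-028 lay below EerI, and the second EerI array was level with the lower control. The second probe set, 237145_at, read 7.67 and 7.71 in control, 7.69 and 7.66 with EerI, 7.67 and 7.66 with CBU-028, and 7.31 and 7.34 with 5-NA. There only 5-NA stood apart, and the other 6 arrays lay close together. EIF2AK4 was lower with 5-NA by 225164_s_at, with a difference of -0.69 ± 0.10 (0.62-fold, limma adjusted p 0.00216), and by 237145_at with -0.36 (adjusted p 0.0116).

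The fall of EIF2AK4 by 225164_s_at was kept without any 1 array (highest adjusted p 0.028 in limma), and that by 237145_at was lost without either control or the first 5-NA array. Without the second 5-NA array, which had the wider actin difference, the value by 225164_s_at was -0.72. With EerI the difference was -0.13 (-0.35 to 0.09) and with CBU-028 -0.35 (-0.57 to -0.13, adjusted p 0.0553), so neither passed. The latter passed in 4 alternatives, among them the fit with probe sets of a mean of at least 5 alone (adjusted p 0.0463). In the direct test EIF2AK4 was lower with 5-NA than with EerI, with a difference of -0.56 (-0.78 to -0.34, limma adjusted p 0.00591), a call that was lost without the second EerI array (adjusted p 0.0613). Against CBU-028, 5-NA differed by -0.34 on each probe set, of which 237145_at passed (adjusted p 0.0204) and 225164_s_at did not (adjusted p 0.0568). The call on 237145_at was lost without either 5-NA array.

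IMPACT, a protein that competes with GCN2 for its activator GCN1 and so restrains the kinase, was also lower with 5-NA. By 222698_s_at it read 8.77 and 8.77 in control, 8.97 and 8.90 with EerI, 8.89 and 8.59 with CBU-028, and 8.31 and 7.97 with 5-NA. By 218637_at it read 7.0 and 6.78 in control, 7.11 and 7.04 with EerI, 6.76 and 6.75 with CBU-028, and 5.80 and 6.02 with 5-NA. On both, the 5-NA arrays were the lowest and the EerI arrays the highest, and duplicates of 5-NA were further apart than those of control on 222698_s_at. The difference from control was -0.63 ± 0.13 by 222698_s_at (0.65-fold, limma adjusted p 0.012) and -0.98 ± 0.11 by 218637_at (0.51-fold, adjusted p 0.000701). By the adjusted ANOVA the difference on 222698_s_at did not pass.

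The fall of IMPACT by 218637_at was kept without any 1 array (highest adjusted p 0.0101 in limma). That by 222698_s_at was lost without either control or the second 5-NA array (highest adjusted p 0.0836). That second array reads the lower value on 222698_s_at and the higher on 218637_at, so that without it the values were -0.46 and -1.09. IMPACT was lower with 5-NA than with EerI, with differences of -0.79 and -1.16 on these probe sets (adjusted p 0.00472 and 0.000437 in limma), in each case also without any 1 array. Against CBU-028 the values were -0.60 and -0.85 (adjusted p 0.0207 and 0.00217), and the former was lost without the first CBU-028 or the second 5-NA array. With EerI (0.16, -0.13 to 0.45) and CBU-028 (-0.03, -0.33 to 0.26) IMPACT did not pass against control.

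EIF2AK1, the heme-regulated kinase, did not pass by its representative probe set 217736_s_at, which read 12.32 and 12.34 in control, 12.33 and 12.28 with EerI, 12.38 and 12.19 with CBU-028, and 12.11 and 12.12 with 5-NA. The 5-NA arrays were the lowest, with a difference of -0.21 (-0.41 to -0.01, limma adjusted p 0.152). It passed in limma where the variance prior followed the mean (adjusted p 0.0386). The mean of the gene's probe sets also passed with 5-NA (-0.24, limma adjusted p 0.0293). With CBU-028 the difference by 217736_s_at was -0.04 (-0.24 to 0.16). The second probe set, 217735_s_at, went the same way with 5-NA but differed with CBU-028: it read 9.26 and 9.32 in control, 9.26 and 9.25 with EerI, 8.97 and 8.95 with CBU-028, and 9.06 and 8.99 with 5-NA. There CBU-028 and 5-NA lay apart from control and EerI, with differences from control of -0.33 (adjusted p 0.0281 in limma) and -0.26 (adjusted p 0.0471). The first call was lost without any 1 of 5 arrays and the second without any 1 of the control, EerI or 5-NA arrays.

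EIF2AK2, the interferon-induced kinase PKR, passed on none of its 3 probe sets in any comparison with the main settings. Its representative probe set 213294_at read 10.56 and 10.65 in control, 10.63 and 10.61 with EerI, 10.43 and 10.34 with CBU-028, and 10.61 and 10.63 with 5-NA. Only the CBU-028 arrays stood below the rest, with a difference from control of -0.22 (-0.40 to -0.04, limma adjusted p 0.132). It passed in limma where the variance prior followed the mean (adjusted p 0.049) or probe sets with a mean below 7 were left out (0.0484). The difference between 5-NA and CBU-028 (0.23, limma adjusted p 0.104) passed in the same alternatives (adjusted p 0.0352 and 0.036). The values with EerI and 5-NA were 0.01 from control on the log2 scale, with intervals from -0.16 to 0.19 and from -0.17 to 0.19. Probe set 204211_x_at ranged from 9.29 to 9.51 over the 8 arrays and 242898_at from 6.27 to 6.64. With CBU-028 they did not fall, with differences from control of 0.06 and 0.02.

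EIF2S1, which encodes eIF2alpha, did not pass against control on any of its 3 probe sets. By 201144_s_at it read 12.55 and 12.62 in control, 12.51 and 12.58 with EerI, 12.88 and 12.68 with CBU-028, and 12.78 and 12.76 with 5-NA. The CBU-028 and 5-NA arrays were above both controls, by 0.20 (-0.01 to 0.40, limma adjusted p 0.232) and 0.18 (-0.02 to 0.39, adjusted p 0.225). Probe set 201142_at read 10.57 and 10.53 in control, 10.31 and 10.32 with EerI, 10.39 and 10.43 with CBU-028, and 10.74 and 10.72 with 5-NA. On this one the compounds fell on both sides of control, EerI and CBU-028 below and 5-NA above, and the duplicates were close. It was higher with 5-NA than with EerI by 0.41 (adjusted p 0.00714 in limma) and than with CBU-028 by 0.32 (adjusted p 0.0272). The former was lost without either EerI array and the latter without any 1 of 7 arrays. The remaining probe set, 201143_s_at, ranged from 9.58 to 9.92.

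**Figure D3:**
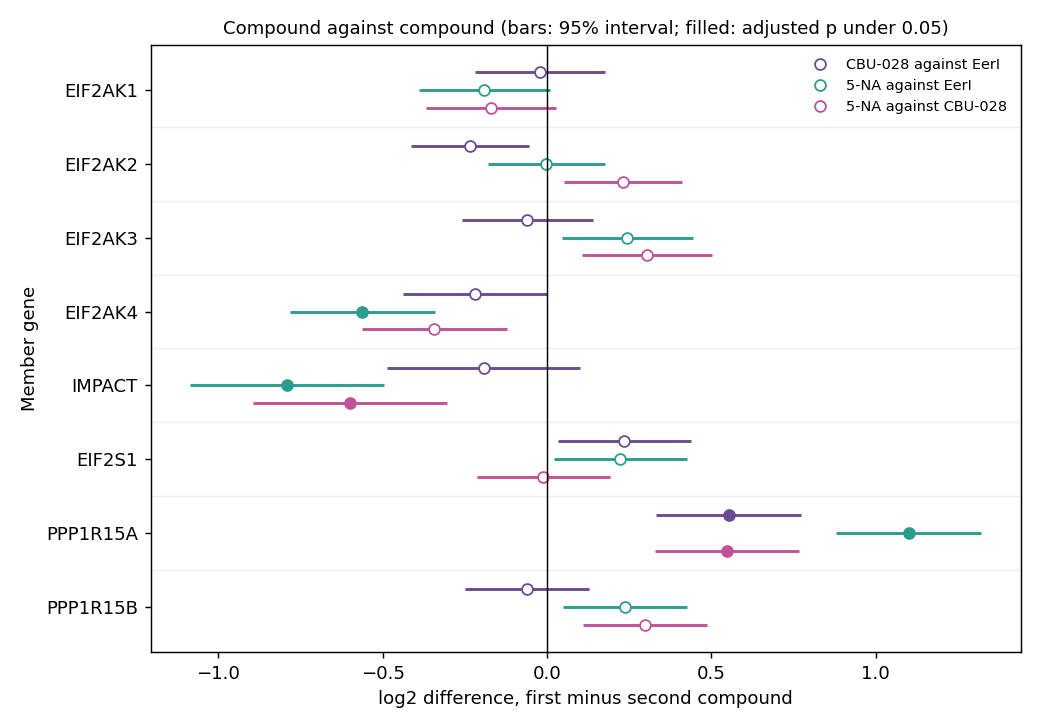
Difference between compounds (log2, horizontal axis, first named minus second) for the representative probe set of each gene, with 95% intervals. Filled points passed the test. PPP1R15A is filled to the right of 0 in all 3 pairs (0.55, 1.10 and 0.55), IMPACT to the left in both pairs with 5-NA (-0.79 and -0.60) and EIF2AK4 to the left in 5-NA against EerI (-0.56).

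Over the 3 pairs of compounds, members passed as follows. Between CBU-028 and EerI, 1 of 8 was higher with CBU-028 and 0 lower (1 at an unadjusted p below 0.05 in limma, 0 by the adjusted ANOVA), against 1.6% and 2.13% of all genes. Between 5-NA and EerI, 1 was higher and 2 lower with 5-NA, against 7.93% and 9.66%. Between 5-NA and CBU-028, 1 was higher and 1 lower with 5-NA, against 6.47% and 7.33%. Of the 17 probe sets, 2, 7 and 6 passed in these pairs, where 2.95%, 14% and 10.6% of all probe sets passed.

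The genes around the kinases and the phosphatase were read from lists chosen by role, with earlier results of these data known. Over all genes, 0.506% rose and 0.263% fell with EerI, 5.49% and 7.1% with CBU-028, and 7.87% and 10.9% with 5-NA. Of 15 subunits and partners of eIF2 and eIF2B, 0 passed with EerI (median difference -0.01), 3 rose and 0 fell with CBU-028 (median 0.00), and 2 rose and 2 fell with 5-NA (median -0.04), beside medians between -0.03 and 0.00 over all genes. At an unadjusted p below 0.05 in limma, 4 were higher and 0 lower with EerI, of which the adjusted ANOVA called 1. EIF5, which triggers GTP hydrolysis by eIF2, rose by 0.57 with CBU-028 (limma adjusted p 0.00428) and 0.45 with 5-NA (adjusted p 0.00832), with 0.27 for EerI. EIF2S2, the beta subunit of eIF2, rose by 0.53 with CBU-028, and EIF1, which guards start codon choice, by 0.38 with CBU-028 and 0.31 with 5-NA. With EerI, EIF2S2 read 13.40 and 13.43 beside 13.0 and 13.02 in control, without passing. EIF1 read 14.16 and 14.17 in control, 14.47 and 14.48 with EerI, and 14.49 and 14.48 with 5-NA. The EerI values of EIF1 were thus close to those of 5-NA but did not pass. The subunits of the exchange factor eIF2B that moved did so with 5-NA: EIF2B3 fell by 0.45 (adjusted p 0.0324) and EIF2B1, named after its value was seen, by 0.38 (adjusted p 0.0151). Each of these calls was lost without at least 1 control array. Without either control array the 3 rises with CBU-028 became 1, and 0 of the 15 rose or fell with 5-NA.

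Of 20 measured regulators of the kinases (HSPA8 had no probe set with its symbol alone), 0 passed with EerI, 1 rose and 1 fell with CBU-028, and 2 rose and 1 fell with 5-NA, with medians of -0.01, -0.02 and -0.03. The shares of all genes were 0.506% higher and 0.263% lower with EerI, 5.49% and 7.1% with CBU-028, and 7.87% and 10.9% with 5-NA. With EerI, 2 of the regulators were higher at an unadjusted p below 0.05 in limma and 0 by the adjusted ANOVA. DNAJC3 (p58IPK), an ER co-chaperone known to inhibit PERK and PKR, rose by 0.78 with 5-NA (limma adjusted p 0.00322) and by 0.46 with CBU-028 (adjusted p 0.0444), with 0.41 for EerI. HSPA5 (BiP), the ER chaperone that holds PERK inactive, rose by 0.49 with 5-NA, with 0.40 for EerI and -0.12 for CBU-028, and was lower with CBU-028 than with EerI (adjusted p 0.0209). OMA1, the mitochondrial protease that cleaves DELE1 to activate HRI, fell by 0.71 with 5-NA (adjusted p 0.00193), with -0.05 for EerI and -0.02 for CBU-028. GCN1, the activator of GCN2, fell by 0.38 with CBU-028 (adjusted p 0.0306). The OMA1 call, and that of DNAJC3 with 5-NA, were kept without any 1 array, that of HSPA5 with 5-NA was lost without the first control array and its difference between CBU-028 and EerI without either EerI array (highest adjusted p 0.172), and the CBU-028 calls of DNAJC3 and GCN1 without any 1 of 5 arrays.

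None of the catalytic subunits of PP1 passed against control. Of 7 measured PP1 subunits and inhibitors, 0 passed with EerI, and 0 rose and 1 fell with CBU-028 and with 5-NA each (medians 0.01, -0.02 and -0.02). Of all genes, 0.506% rose and 0.263% fell with EerI, 5.49% and 7.1% with CBU-028, and 7.87% and 10.9% with 5-NA. At an unadjusted p below 0.05 in limma, 0 of the 7 moved with EerI, and by the adjusted ANOVA also 0. The genes that fell were PPP1R10, a nuclear targeting subunit, at -0.48 with CBU-028, and PPP1R11, an inhibitor, at -0.34 with 5-NA, both calls being lost without either control array.

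The genes known to be read out by phosphorylated eIF2alpha through ATF4 gave larger differences. Of 15, 14 rose with each compound, 0 fell, and the median difference was 1.32 with EerI, 1.93 with CBU-028 and 1.03 with 5-NA. The shares of all genes that rose were 0.506%, 5.49% and 7.87%. By the methods' ANOVA after adjustment, 7 of the 15 rose with EerI, 14 with CBU-028 and 13 with 5-NA. CHAC1, which degrades glutathione, rose by 3.24, 3.56 and 2.02 in that order, SLC7A11, the cystine transporter, by 2.90, 2.89 and 2.04, DDIT4, an inhibitor of mTORC1, by 2.47, 2.47 and 1.15, and ATF3, a transcription factor, by 1.87, 2.84 and 2.03. ATF4 itself rose by 0.78, 0.64 and 0.48. ATF5, singled out after its values were seen, was the gene that did not pass (-0.14, -0.30 and 0.04). The count with EerI dropped to 12 without any 1 control or EerI array and that with 5-NA to 12 without the second control or the first 5-NA array, whereas all 14 were kept with CBU-028. The rise of ATF4 with EerI was among those lost.

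PPP1R15A is itself known as a target of this branch, and its steps between compounds are set beside those of the list. Between 5-NA and CBU-028, PPP1R15A was 0.55 higher with 5-NA. Of the 15 genes, 10 were lower with 5-NA there and 1 was higher (median -0.63), against 7.33% and 6.47% of all genes. Between 5-NA and EerI, PPP1R15A was 1.10 higher with 5-NA. Of the 15 genes, 6 were lower with 5-NA there and 2 higher (median -0.28), against 9.66% and 7.93% of all genes. Between CBU-028 and EerI, 5 were higher with CBU-028 and 0 lower (median 0.03), against 1.6% and 2.13% of all genes. None of these 5 calls was left without the first EerI array, 4 of the 5 were lost without the second, and the adjusted ANOVA called 1. The 2 genes higher with 5-NA than with EerI became 1 without the first EerI array, and the 1 higher than with CBU-028 (ATF5) was lost without any 1 of 6 arrays, while the 10 lower with 5-NA than with CBU-028 stayed at 9 or 10.

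**Figure D4:**
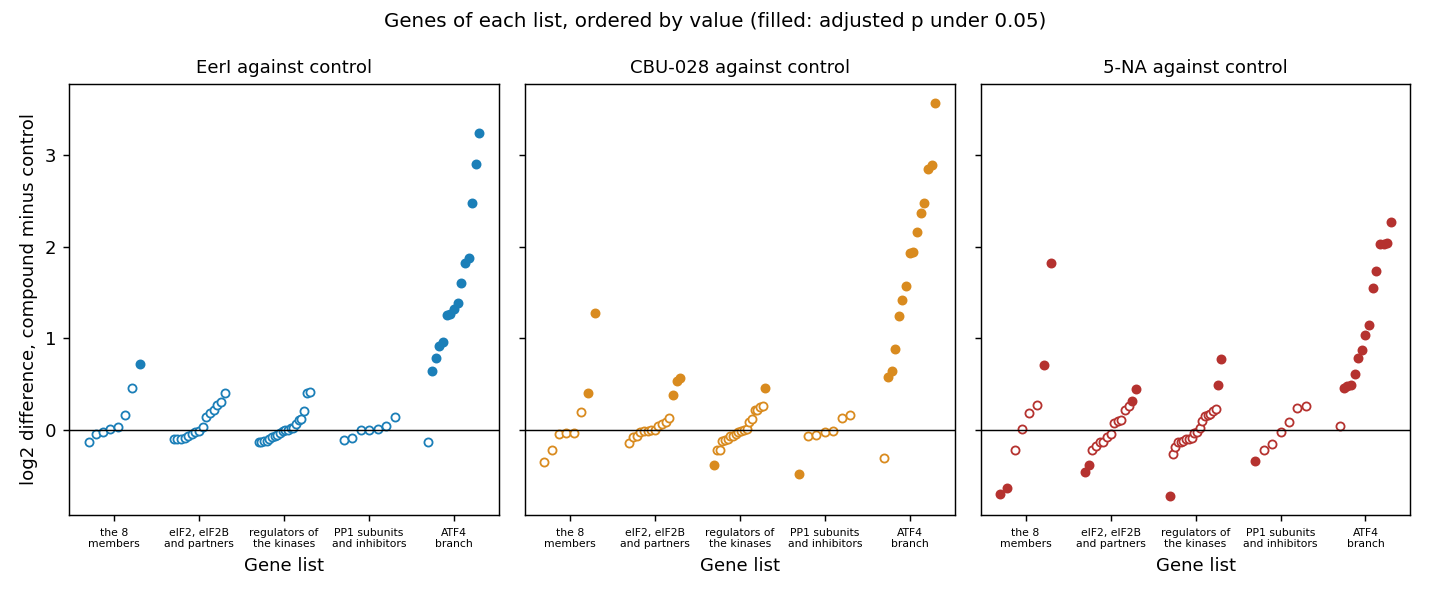
Difference from control (log2, vertical axis) of each gene in the 8 members and in 4 lists, with genes ordered by value within a list and 1 panel a compound. Filled points passed the test. The ATF4 branch reaches 3.24, 3.56 and 2.26 in the 3 panels, while the genes of the kinase regulator and PP1 lists lie within 1 log2 unit of 0.

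Genes linked to the signals of HRI and PKR were read as well. Of 9 measured heme-linked genes, 1 rose with EerI, 2 rose and 1 fell with CBU-028, and 2 rose and 2 fell with 5-NA (medians -0.01, -0.07 and -0.20). Rises and falls over all genes were 0.506% and 0.263% with EerI, 5.49% and 7.1% with CBU-028, and 7.87% and 10.9% with 5-NA. HMOX1, the inducible heme oxygenase, rose by 2.94, 3.74 and 3.20, and ALAS1, the first enzyme of heme synthesis, by 1.12 with CBU-028 and 0.84 with 5-NA, with 0.11 for EerI. HMOX2, the constitutive heme oxygenase, fell by 0.53 with 5-NA, and CPOX, a later enzyme of heme synthesis, by 0.35 with CBU-028 and 0.29 with 5-NA. These falls were lost without either control array.

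Of 17 measured interferon-induced genes, 1 fell with EerI, 1 rose and 2 fell with CBU-028, and 3 rose and 3 fell with 5-NA (medians -0.02, -0.05 and 0.04). Over all genes, 0.263% fell with EerI, 5.49% rose and 7.1% fell with CBU-028, and 7.87% rose and 10.9% fell with 5-NA. IFIT1, which binds foreign RNA, fell by 0.73, 2.44 and 1.52, the first of these lost without any 1 control, EerI or 5-NA array. The second gene that fell with CBU-028, IFITM1, named after its value was seen, lost its call whichever of the 8 arrays was left out (-0.29, lowest adjusted p 0.0546), and the 1 rise with CBU-028 became 2 without either 5-NA array. The 3 falls with 5-NA became 5 without either CBU-028 array and 2 without either control array or the second 5-NA array. IRF1 and IRF7, transcription factors of the interferon response, rose by 0.83 and 0.75 with 5-NA, and ISG15, a ubiquitin-like protein, by 0.61 with CBU-028. EIF2AK2, a member of the same response, stayed within 0.22 of control on the representative probe set.

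The genes whose pattern over the 8 arrays was most like that of PPP1R15A, among 440 with a mean of at least 7 and a range of at least 1, were TUFT1 (r = 0.992), ZFAND2A (0.991), DUSP1 (0.991), ISL2 (0.982) and YPEL2 (0.979). ZFAND2A, a stress-induced protein that binds the proteasome, differed from control by 0.82 with EerI, 1.82 with CBU-028 and 2.52 with 5-NA. EIF2AK3 had the largest overall statistic of the kinases (moderated F 22.3), and the genes most like it, of 441, were DNAJB9 (0.972), SLC7A5 (0.949), TAC1 (0.947), FOSL2 (0.943) and DUSP1 (0.933). DNAJB9, an ER co-chaperone, differed from control by 0.68, 0.76 and 1.26. These correlations run over 8 arrays in 4 groups that share their treatments, and are given as a description.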

How the data were processed

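RNA of 293T cells (2 arrays in each of 4 groups) was hybridized to Affymetrix arrays. Per the labels, the authors normalized with RMA in Partek, and the deposited values are log2 RMA values for 54675 probe sets, with versions not given in the sources used here. Probe sets were named by the platform annotation, with symbols updated through gene IDs: 41097 carry a single symbol, 1801 several and 11777 none.

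A model with 1 mean per group was fitted to all 8 arrays in limma 3.58.1 (R 4.3.3), without trend (4 residual and 5.08 prior degrees of freedom). Differences passed at a Benjamini-Hochberg adjusted p below 0.05 over all probe sets of a comparison, with no fold threshold; intervals cover 95%. Of several probe sets of a gene, the one of highest mean was taken. All members were named, and of each list up to 4 genes with the largest difference among those past the test in any comparison with control. An exact permutation test of 2 against 2 cannot go below 0.333, so none was used. Alternatives were the ANOVA of the methods, filters on dim probe sets, other normalizations, the replicate number as a block and leaving out each array. Members and lists were chosen with earlier results of these data known. The code was tested on simulated data. Protein sequences were not analysed here. Figures were drawn with matplotlib 3.10.9.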

Additional observations from a re-analysis of the deposited data

Results flagged for a closer look

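Several members differed between compounds in a direct test (limma, adjusted over all probe sets, 2 arrays a group), at the same dose and time. PPP1R15A was higher with CBU-028 than with EerI by 0.55 (log2), with 5-NA than with EerI by 1.10 and with 5-NA than with CBU-028 by 0.55. The 2 values of one compound were all above those of the other in each pair and on both probe sets. EIF2AK4 differed by -0.56 between 5-NA and EerI, with both 5-NA arrays below both EerI arrays. IMPACT differed by -0.79 between 5-NA and EerI and by -0.60 between 5-NA and CBU-028, likewise without overlap. By the adjusted ANOVA, only the PPP1R15A difference between 5-NA and EerI passed among these differences of representative probe sets. In fits of the compared groups alone, PPP1R15A did not pass between CBU-028 and EerI or between 5-NA and CBU-028. Nor did IMPACT pass there between 5-NA and CBU-028.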

How the results depend on the processing

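Counts of members that passed are given in the order EerI, CBU-028 and 5-NA against control, CBU-028 against EerI, 5-NA against EerI and 5-NA against CBU-028. They were 1, 2, 4, 1, 3 and 2 of 8 genes and 2, 4, 8, 2, 7 and 6 of 17 probe sets. With a 2-fold minimum, whether in limma or with the unadjusted p of the methods' ANOVA, they were 0, 1, 1, 0, 1 and 0 genes and 0, 2, 2, 0, 3 and 0 probe sets. The ANOVA with adjusted p gave 0, 1, 3, 0, 1 and 0 genes and 0, 3, 8, 0, 6 and 4 probe sets. Fits of the compared groups alone gave 1, 1, 4, 0, 3 and 0 genes and 2, 2, 7, 0, 7 and 1 probe sets. A variance prior that follows the mean gave 2, 4, 6, 1, 5 and 6 genes and 3, 6, 10, 3, 9 and 10 probe sets. Probe sets with a mean of at least 7 alone gave 2, 4, 5, 1, 5 and 6 genes, and of at least 5 alone 1, 3, 5, 1, 3 and 5. Adjustment over all 6 comparisons together gave 2 genes with EerI, and the mean of all probe sets of a gene gave 1, 1, 6, 1, 6 and 4. New quantile normalization and median centring moved no count by over 1.5 times. Shares over all genes and probe sets were taken for the main fit alone. Whether the member counts moved more than those of all genes under an alternative was not tested. Leaving out 1 array at a time, the counts were 0 to 1, 1 to 3, 3 to 5, 0 to 1, 2 to 3 and 1 to 2 genes, and 1 to 2, 2 to 5, 5 to 9, 0 to 2, 4 to 8 and 2 to 6 probe sets.

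Over the 13 differences of genes that passed, 222 of 273 alternative values passed too, 51 kept the direction only and 0 reversed. Of the 35 that had not passed, 39 of 735 alternative values passed and 21 reversed, all reversed values without passing. Against control they were as follows. EIF2AK1 ranged from -0.0508 to 0.00645 with EerI and from -0.141 to 0.0554 with CBU-028 as 1 array at a time was left out, IMPACT from -0.185 to 0.119 with CBU-028, PPP1R15B from -0.0353 to 0.0965 with EerI and from -0.0701 to 0.0108 with CBU-028, and EIF2AK2 from -0.0325 to 0.0619 with EerI and from -0.034 to 0.0605 with 5-NA. Median centring gave -0.00264 for EIF2AK2 with EerI, and new quantile normalization -0.00185 with 5-NA. The mean of all probe sets of the gene gave -0.00467 and -0.0337 for EIF2AK2 with EerI and 5-NA, and -0.00484 for EIF2S1 with CBU-028. The cause of these shifts was not tested.

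Samples with the same replicate number did not deviate together: the correlations of their deviations ran from -0.146 to 0.146 over the 6 pairs of groups. With the replicate block the counts were 1, 2, 4, 1, 3 and 2 genes and 2, 4, 7, 2, 7 and 6 probe sets. Crossing the numbers of EerI in the block, chosen after seeing the data, gave the same counts. Limits: with 2 arrays a group the median SE of a log2 difference was 0.099, and RMA values show no change shared by all genes.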
